A study of Mus musculus with 7 samples.

Results

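The 10 genes described here belong to the TGF-beta and fibrosis programme of the heart: the ligands Tgfb1, Tgfb2 and Tgfb3, the binding protein Ltbp2, the thrombospondins Thbs1 and Thbs4, the secreted regulators Ccn2 (formerly Ctgf), Postn and Spp1, and the matrix glycoprotein Fn1. They were given as a list of names and matched by symbol, and all 10 were found among the 14641 genes of the count table. RNA was sequenced from whole heart lysate of male C57BL/6J mice, with 1 library per mouse, in a comparison of 4 non-transgenic littermates (NTG 1, 2, 3 and 4) with 3 mNrf2-TG mice (mNrf2-TG 17, 18 and 19). The transgene of the mNrf2-TG mice encodes full-length Nrf2 of the mouse and is driven in cardiomyocytes by the αMHC promoter, and the labels name no treatment for either group. The label of the mNrf2-TG mice gives an age of 6 months, the design text gives 7 to 8 months and the methods 6 to 7 months, and the labels of the NTG mice give none. How many founder lines were used is not given in the sources used here, and the labels name neither litters nor batches.

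TGF-beta is secreted as a latent complex in which the mature ligand stays bound to its own propeptide, and latent TGF-beta binding proteins tether that complex to the matrix until integrins, proteases or thrombospondin-1 release it. The freed ligand binds type II and type I receptor kinases, which phosphorylate Smad2 and Smad3, and these enter the nucleus with Smad4 and switch on collagen, fibronectin and matricellular genes in fibroblasts. Matricellular proteins such as periostin, the CCN proteins, osteopontin and the thrombospondins are secreted into the matrix but mainly signal to cells, and they are best known in the heart from injury, pressure load and scar formation.

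Library totals ran from 6534684 to 8405857 counts. The overexpressed gene, Nfe2l2 (which encodes Nrf2), measured 1402, 1253, 752 and 1050 normalised counts in NTG 1 to 4 and 12030, 10751 and 11654 in mNrf2-TG 17 to 19, a log2 fold change of 3.36 ± 0.18 (SE) with an adjusted p of 2.96e-06 in edgeR's quasi-likelihood test, so every library matched its label. Reads of the transgene and of the endogenous gene cannot be told apart in that count. Normalised counts are counts scaled by edgeR's TMM factors to a common library size, errors of fold changes are standard errors, and an adjusted p under 0.05 (Benjamini-Hochberg over 14637 genes) is the threshold. A gene that passed is said to have risen or fallen in mNrf2-TG against NTG.

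Of the 10 genes, 2 passed, and both fell: Thbs1 and Tgfb1. Over all genes 17.2% passed in either direction and 8.73% fell. None of the 10 rose by edgeR (0 of 10, against 8.48% of all genes); 2, Tgfb2 and Thbs4, were higher at an unadjusted p under 0.05, DESeq2 called 1 and limma-voom 0. The groups did not overlap for 2 of the 10 genes, the same 2 that fell, while 29.7% of all genes had groups that did not overlap. The median log2 fold change of the 10 genes was 0.16, and that of all genes 0.00. The library NTG 3 was the highest NTG library for 7 of the 10 genes, against 31.2% of all genes, and without it the count of genes that rose was 4, so values without NTG 3 are given beside each gene they change.

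**Figure D1:**
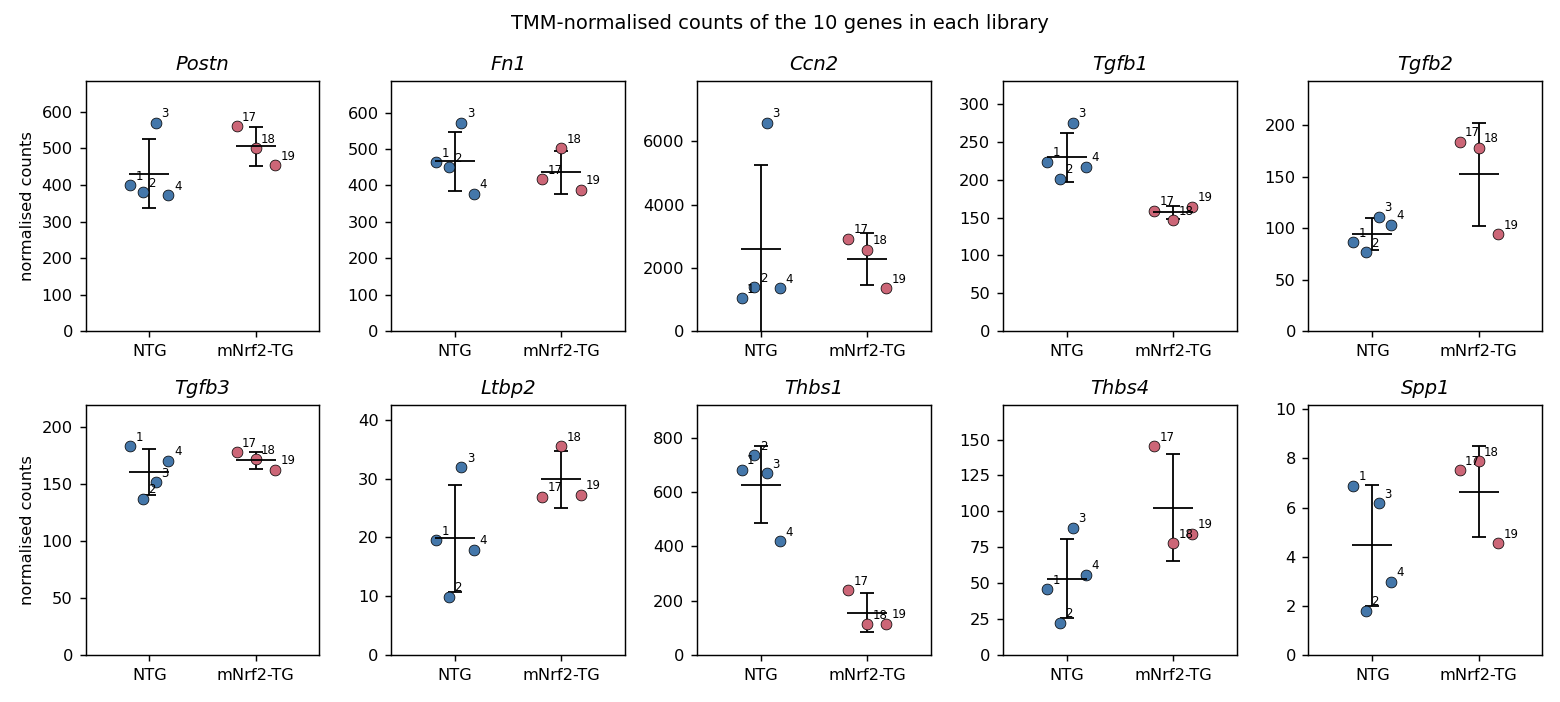
Normalised counts (y axes, from 0) of each of the 10 genes in the 4 NTG libraries (blue) and the 3 mNrf2-TG libraries (red), numbered as in the labels, with the mean and SD of each group as horizontal line and bars; the SD bar of Ccn2 in NTG extends below 0 and stops at the axis. For Thbs1 and Tgfb1 every mNrf2-TG point lies below every NTG point, and for Ccn2 the point of NTG 3, at 6592, stands far above the other 3 NTG points.

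The ligands come first. TGF-beta 1, 2 and 3 are close relatives that share receptors; Tgfb1 is the form best known from injury and fibrosis, and Tgfb2 and Tgfb3 from heart and valve development. The promoters of Tgfb1 and Tgfb2 are shown because these ligands lie on opposite sides of 0 in the comparison, that of Postn because it was the only one of the 8 promoters found with a match to the core of the element that Nrf2 binds, and that of Thbs4 because of its TEAD matches. Each runs from 250 bases before to 50 bases after a RefSeq start site (GRCm38.p6), 5′ to 3′ on the strand of the gene. RefSeq promoters were matched for 6 of the 10 genes (Postn, Tgfb1, Tgfb2, Ltbp2, Thbs4 and Spp1, with 8 promoters in all). Capitals mark matches to the antioxidant response element core, the TATA box or the TEAD site, and matches to the Smad site are left in lower case.
Tgfb1, chr7:25686752-25687051, plus strand: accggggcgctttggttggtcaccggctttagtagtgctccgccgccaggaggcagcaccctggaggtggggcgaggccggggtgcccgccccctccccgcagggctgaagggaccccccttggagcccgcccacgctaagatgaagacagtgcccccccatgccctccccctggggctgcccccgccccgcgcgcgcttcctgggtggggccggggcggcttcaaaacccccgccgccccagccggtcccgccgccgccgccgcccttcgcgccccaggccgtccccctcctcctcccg
Tgfb2, chr1:186705940-186706239, minus strand: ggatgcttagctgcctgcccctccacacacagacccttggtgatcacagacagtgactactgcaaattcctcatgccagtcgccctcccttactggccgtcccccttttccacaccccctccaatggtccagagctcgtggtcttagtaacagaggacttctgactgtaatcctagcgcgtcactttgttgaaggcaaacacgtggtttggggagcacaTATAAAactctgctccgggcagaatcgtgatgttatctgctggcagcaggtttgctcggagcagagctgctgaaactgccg
Postn, chr3:54359017-54359316, plus strand: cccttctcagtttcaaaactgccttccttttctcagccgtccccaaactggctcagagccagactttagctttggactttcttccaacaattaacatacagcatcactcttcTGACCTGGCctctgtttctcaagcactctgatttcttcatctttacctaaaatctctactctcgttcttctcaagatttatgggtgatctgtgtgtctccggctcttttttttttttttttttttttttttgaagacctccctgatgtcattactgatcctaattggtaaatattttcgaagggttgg
Thbs4, chr13:92794769-92795068, minus strand: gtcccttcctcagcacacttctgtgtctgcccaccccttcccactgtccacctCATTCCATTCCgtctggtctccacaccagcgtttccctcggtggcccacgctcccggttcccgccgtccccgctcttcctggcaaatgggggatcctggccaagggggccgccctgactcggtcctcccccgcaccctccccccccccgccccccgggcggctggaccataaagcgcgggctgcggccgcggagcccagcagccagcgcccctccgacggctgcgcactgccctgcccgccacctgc

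The motifs were searched on both strands of 32851 RefSeq promoters of this length: the antioxidant response element core TGACNNNGC (found in 12.39% of them), the AP-1 site TGANTCA (7.81%), the Smad site GTCTG (49.59%), the TEAD site GGAATG (14.66%) and the TATA box TATAAA (13.62%). The Tgfb1 promoter held no match to any of them and had a GC content of 77.0%, against a median of 52.7% over all promoters. The Tgfb2 promoter, at 54.3% GC, held TATAAA at position -31 from the start site and 2 Smad matches. The Postn promoter shown belongs to an upstream RefSeq start, outside the span of the gene in GENCODE M21. It held TGACCTGGC at position -138 and a Smad match at position -191. The promoter of the other Postn start, which spans the GENCODE start of the gene, held TATAAA at position -26 and no match to the antioxidant response element core. The Thbs4 promoter held CATTCC, the reverse complement of the TEAD letters, at positions -197 and -192, and these 2 matches share a base. It also held Smad matches at positions -226 and -186. Such matches describe letters in a window and say nothing on whether a factor binds there.

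Tgfb1 (chromosome 7, 25687002 to 25705077, GRCm38) measured 224, 202, 275 and 217 normalised counts in NTG 1 to 4 and 159, 147 and 164 in mNrf2-TG 17 to 19. All 3 mNrf2-TG hearts lay below the lowest NTG heart. The mean was 230 ± 31.9 (SD, n = 4) in NTG and 157 ± 9.0 (SD, n = 3) in mNrf2-TG, a 1.46-fold fall (log2 fold change -0.55 ± 0.12, 95% interval -0.82 to -0.28, adjusted p = 0.0134 in edgeR's quasi-likelihood test). Tgfb1 passed in 13 of the 14 alternative fits, and without mNrf2-TG 18 the adjusted p in edgeR was 0.0544.

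Tgfb2 (chromosome 1, 186622792 to 186705989) measured 86.2, 76.5, 111 and 104 normalised counts in NTG 1 to 4 and 184, 178 and 94.4 in mNrf2-TG 17 to 19. The hearts 17 and 18 were above every NTG heart, whereas 19 lay inside the NTG range. The log2 fold change was 0.68 ± 0.23 (95% interval 0.18 to 1.19) with an adjusted p of 0.0653 in edgeR, which did not pass. It passed in 4 of the 14 alternative fits: with DESeq2, with scaling by library total only, without NTG 3 (adjusted p = 0.0432 in edgeR) and without mNrf2-TG 19 (0.00746).

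Tgfb3 (chromosome 12, 86056745 to 86079041) measured between 137 and 183 normalised counts in NTG and between 162 and 178 in mNrf2-TG, so the mNrf2-TG hearts lay within the NTG range. The log2 fold change was 0.09 ± 0.12, and its 95% interval, -0.17 to 0.35, includes a rise of up to 1.27-fold. Ttll5, the only overlapping gene that the count table also lists, lies on the opposite strand of Tgfb3 and shares 0 exon bases with it. Tgfb3 passed in none of the 14 alternative fits.

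Per length, Tgfb2 was the least abundant ligand in NTG hearts. The level in RPKM (TMM-scaled CPM per kilobase of exon) was 6.30 ± 0.80 for Tgfb3, 6.05 ± 0.84 for Tgfb1 and 2.17 ± 0.37 for Tgfb2 (mean ± SD, n = 4), so Tgfb3 and Tgfb1 did not differ beyond their spread and Tgfb2 was below both. In mNrf2-TG hearts the levels were 6.70 ± 0.30, 4.13 ± 0.24 and 3.49 ± 1.15 RPKM (n = 3) in the same order, and there Tgfb1 and Tgfb2 were within the spread of Tgfb2. The summed level of the 3 ligands was 14.5 ± 1.44 RPKM in NTG and 14.3 ± 1.30 RPKM in mNrf2-TG.

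The make-up of that sum differed more than its size. Tgfb1 took 39.2%, 42.7%, 46.0% and 38.7% of the summed RPKM in NTG 1 to 4 and 27.3%, 26.3% and 33.6% in mNrf2-TG 17 to 19, without overlap between the groups. The share of Tgfb2 was 13.1% to 16.2% in NTG and 27.4%, 27.8% and 16.8% in mNrf2-TG 17 to 19. Tgfb3 held 43.5% ± 4.21 of the sum in NTG and 46.9% ± 2.32 in mNrf2-TG. These shares rest on the same counts as the fold changes above and were given no test of their own.

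**Figure D2:**
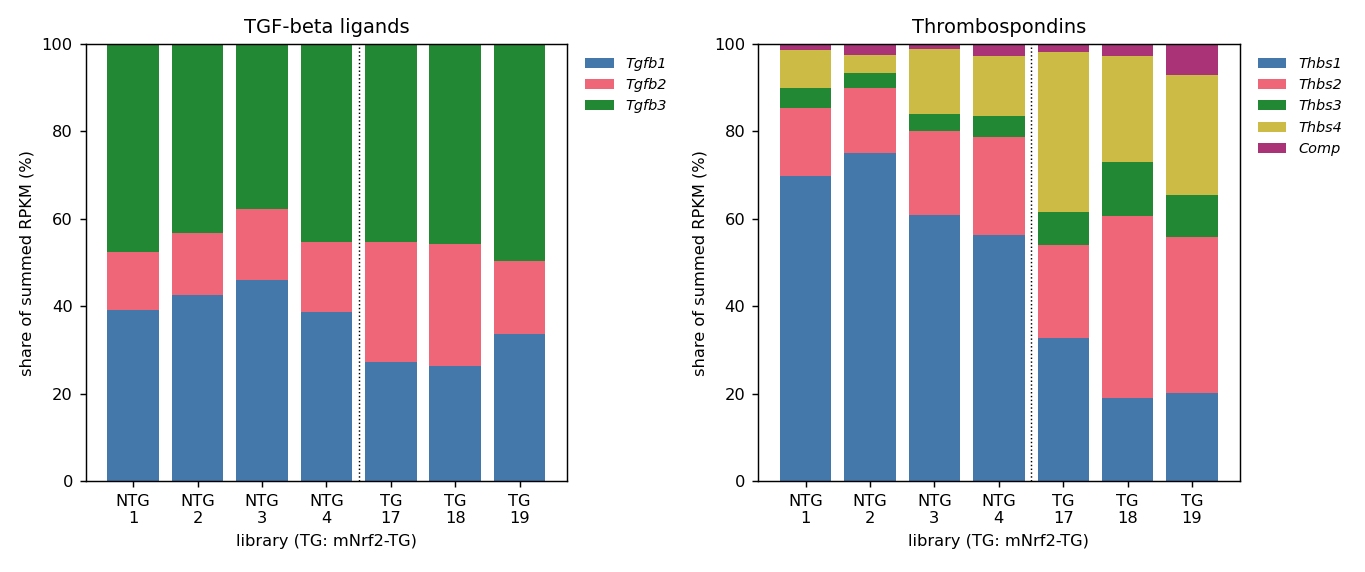
Share of the summed RPKM (y axes, %) taken by each TGF-beta ligand (left) and each thrombospondin (right; Comp is thrombospondin-5) in every library (x axes; the dotted line separates NTG from mNrf2-TG). Tgfb1 falls from 38.7% or more of the ligands to 33.6% or less, and Thbs1 from 56.3% or more of the thrombospondins to 32.7% or less.

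Thrombospondins are secreted proteins of 2 kinds, the trimeric Thbs1 and Thbs2 and the pentameric Thbs3, Thbs4 and Comp. Thbs1, an inhibitor of angiogenesis that also activates latent TGF-beta, had the largest change of the 10 genes. Thbs1 (chromosome 2, 118111876 to 118127133) measured 683, 735, 669 and 419 normalised counts in NTG 1 to 4 and 239, 113 and 114 in mNrf2-TG 17 to 19. Every mNrf2-TG heart was below the lowest NTG heart, which was NTG 4, and mNrf2-TG 17 had the highest level of the 3 mNrf2-TG hearts. The mean was 627 ± 141 (SD, n = 4) in NTG and 156 ± 72.2 (SD, n = 3) in mNrf2-TG, a 4.06-fold fall (log2 fold change -2.02 ± 0.28, 95% interval -2.64 to -1.40, adjusted p = 0.00163 in edgeR's quasi-likelihood test). It passed in all 14 alternative fits, with log2 fold changes from -2.46 to -1.83.

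Thbs4 (chromosome 13, 92751590 to 92794818), a thrombospondin found in muscle, tendon and the stressed heart, measured 46.0, 22.5, 88.7 and 55.8 normalised counts in NTG 1 to 4 and 145, 77.8 and 84.4 in mNrf2-TG 17 to 19. Only mNrf2-TG 17 lay above NTG 3, and the other mNrf2-TG hearts lay between NTG 3 and the remaining NTG hearts. The log2 fold change was 0.95 ± 0.37 (95% interval 0.12 to 1.77, adjusted p = 0.107 in edgeR), which did not pass. Without NTG 3 it was 1.31 ± 0.32 with an adjusted p of 0.0167. Without mNrf2-TG 17 it was 0.62 ± 0.40 (adjusted p = 0.360 in edgeR), and Thbs4 passed in 1 of the 14 alternative fits.

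Among the 5 thrombospondins, Thbs1 took 56.3% to 75.1% of the summed RPKM in NTG hearts and 19.1% to 32.7% in mNrf2-TG hearts. Thbs4 took 4.24% to 14.9% in NTG and 24.2% to 36.7% in mNrf2-TG, also without overlap, but its own level overlapped (0.91 to 3.58 RPKM in NTG and 3.14 to 5.87 RPKM in mNrf2-TG), and the share also moves with the fall of Thbs1 in the sum. The summed level was 20.8 ± 3.24 RPKM in NTG and 13.8 ± 1.90 RPKM in mNrf2-TG. Of the family members outside the 10 genes, Thbs3 rose, from 30.9 ± 4.13 to 48.6 ± 9.13 normalised counts (log2 fold change 0.66 ± 0.20, adjusted p = 0.0468 in edgeR). That call was kept in 7 of the 14 alternative fits. Thbs2 measured 194 ± 34.3 and 233 ± 52.5 (adjusted p = 0.321) and Comp 8.68 ± 2.59 and 11.4 ± 7.42 (adjusted p = 0.589), and neither passed.

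Ltbp2, a microfibril protein that is homologous to the latent TGF-beta binding proteins but does not itself bind latent TGF-beta, was near the low end of the 10 genes (chromosome 12, 84783212 to 84876532). It measured 19.5, 9.90, 32.0 and 17.9 normalised counts in NTG 1 to 4 and 26.9, 35.5 and 27.2 in mNrf2-TG 17 to 19. The mNrf2-TG hearts lay above 3 of the NTG hearts, and NTG 3 lay among them. The log2 fold change was 0.60 ± 0.34 (95% interval -0.15 to 1.36, adjusted p = 0.254 in edgeR), and without NTG 3 it was 0.94 ± 0.30 with an adjusted p of 0.0519. Without NTG 2 it was 0.37 ± 0.29 (adjusted p = 0.447 in edgeR), and Ltbp2 passed in none of the 14 alternative fits.

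Ccn2, the connective tissue growth factor induced by TGF-beta and by stretch, was the most abundant of the 10 genes per length in both groups. It lies on chromosome 10 (24595442 to 24598683). It measured 1044, 1387, 6592 and 1365 normalised counts in NTG 1 to 4 and 2931, 2579 and 1359 in mNrf2-TG 17 to 19. NTG 3 was 5.21 times the mean of the other NTG hearts and above every mNrf2-TG heart, and mNrf2-TG 19 was at the level of NTG 2 and 4. With all 7 libraries the log2 fold change was -0.18 ± 0.59, with a 95% interval from -1.49 to 1.13 and an adjusted p of 0.866 in edgeR. Without NTG 3 the direction turned: the log2 fold change was 0.85 ± 0.23 (95% interval 0.34 to 1.37, adjusted p = 0.0266).

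Immediate-early genes, transcription factors that are switched on within minutes of a stimulus, and targets of YAP and TEAD, the factors that read cell stretch, were looked at beside Ccn2. The summed level of 10 immediate-early genes was 640 CPM (counts scaled to a common library total) in NTG 3, 317 to 451 CPM in the other NTG hearts and 289 to 347 CPM in mNrf2-TG. Of these 10, Junb (log2 fold change -0.69, adjusted p = 0.0332) and Jun (-0.45, adjusted p = 0.0342 in edgeR), subunits of the AP-1 factor, fell, although the groups overlapped for both, and the other 8 did not pass. Over all genes 8.73% fell. Without NTG 1, or without mNrf2-TG 18, 0 of the 10 passed downward in edgeR, and without NTG 4 neither Junb nor Jun did. A list of 11 other YAP and TEAD targets summed to 4974 CPM in NTG 3, 2058 to 2578 CPM in the other NTG hearts and 6032 to 7643 CPM in mNrf2-TG. Most of that sum can be traced to Ankrd1, a stretch-responsive repeat protein of cardiomyocytes, which rose from 16979 ± 9431 to 48274 ± 6447 normalised counts (log2 fold change 1.51 ± 0.32, adjusted p = 0.0112 in edgeR). It was the only one of the 11 to pass with all libraries, where 8.48% of all genes rose. Without NTG 3 or without mNrf2-TG 19, 2 of the 11 rose, and without NTG 2 or without NTG 3, 1 fell. What sets NTG 3 apart was not tested.

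Postn, periostin, a matricellular protein made by activated fibroblasts and valve cells, lies on chromosome 3 (54361109 to 54391037). It measured 400, 381, 570 and 371 normalised counts in NTG 1 to 4 and 561, 500 and 455 in mNrf2-TG 17 to 19. All mNrf2-TG hearts were above NTG 1, 2 and 4 and below NTG 3. The log2 fold change was 0.23 ± 0.15 (95% interval -0.10 to 0.56, adjusted p = 0.319 in edgeR), and without NTG 3 it was 0.40 ± 0.09 with an adjusted p of 0.0131. Without mNrf2-TG 17 it was 0.15 ± 0.17 (adjusted p = 0.620 in edgeR), and Postn passed in 1 of the 14 alternative fits.

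Spp1, osteopontin, a cytokine-like protein of macrophages and injured myocardium, was close to the detection limit (chromosome 5, 104435118 to 104441050). Its raw counts were 6, 2, 6 and 3 in NTG 1 to 4 and 7, 8 and 5 in mNrf2-TG 17 to 19. At these counts a difference between the groups was not detectable (log2 fold change 0.59 ± 0.51, 95% interval -0.55 to 1.73, adjusted p = 0.468 in edgeR). Both stricter count filters removed the gene, so it has values in 12 of the 14 alternative fits.

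Fn1, fibronectin, the matrix glycoprotein on which collagen fibrils and latent TGF-beta complexes assemble, lies on chromosome 1 (71585520 to 71653200). It measured 464, 450, 572 and 377 normalised counts in NTG 1 to 4 and 417, 502 and 388 in mNrf2-TG 17 to 19. The groups overlapped throughout. The log2 fold change was -0.10 ± 0.14 (95% interval -0.40 to 0.21, adjusted p = 0.685 in edgeR), and without NTG 3 it was 0.019, so its sign depended on that library.

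Ordered by level in NTG hearts, Ccn2 stood first at 121 ± 124 RPKM, followed by Thbs1 at 13.7 ± 3.09, Postn at 6.57 ± 1.43, Tgfb3, Tgfb1, Fn1 at 5.30 ± 0.91, Tgfb2, Thbs4 at 2.15 ± 1.11, Spp1 at 0.36 ± 0.20 and Ltbp2 at 0.32 ± 0.15 RPKM (mean ± SD, n = 4). Postn, Tgfb3, Tgfb1 and Fn1 did not differ beyond their spread, nor did Tgfb2 and Thbs4, nor Spp1 and Ltbp2. In mNrf2-TG hearts Ccn2 remained first at 106 ± 38.3 RPKM and Postn stood next at 7.71 ± 0.81 RPKM (n = 3). Thbs1, at 3.40 ± 1.58 RPKM, was then within the spread of Thbs4 (4.14 ± 1.5) and Tgfb2.

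**Figure D3:**
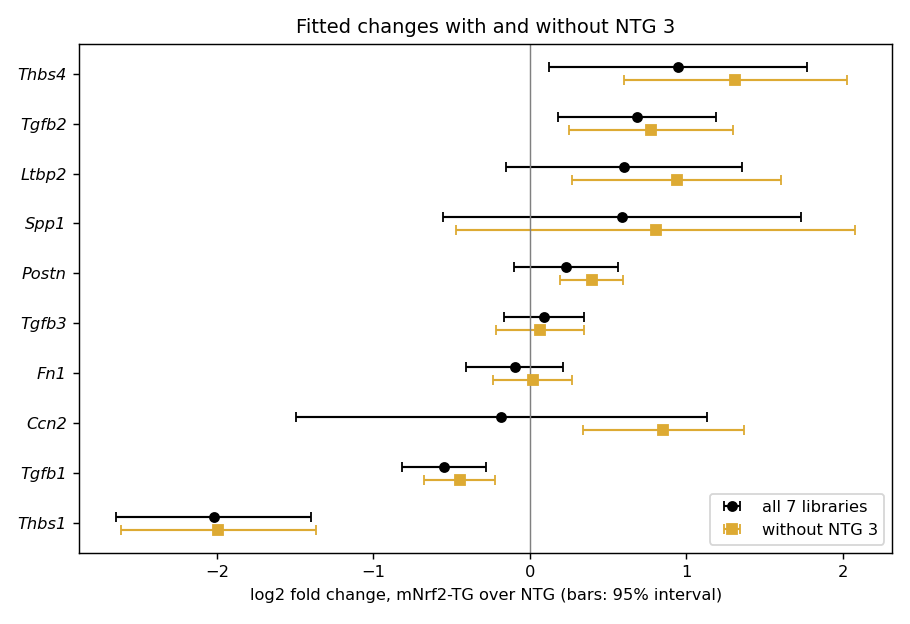
Fitted log2 fold changes of the 10 genes (x axis, mNrf2-TG over NTG) with their 95% intervals, from all 7 libraries (black circles) and without NTG 3 (yellow squares). Thbs1 and Tgfb1 lie below 0 in both fits, while Ccn2 moves from -0.18 to 0.85 when NTG 3 is left out.

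With NTG 3 left out, 6 of the 10 genes passed, against 20.2% of the 14623 genes then tested, and 4 of them rose (Postn, Ccn2, Tgfb2 and Thbs4), against 10.1% of those genes. NTG 3 was the highest NTG library for 7 of the 10 genes, among them the 4 that rose. Leaving it out lowers their NTG mean by construction, so these counts are no evidence of more changes among the 10 genes than among all genes. Thbs1 (-1.99 ± 0.28, adjusted p = 0.00114) and Tgfb1 (-0.45 ± 0.10, adjusted p = 0.0126 in edgeR) fell in that fit too. NTG 3 carries the same genotype label as the other NTG libraries, and no label sets it apart.

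The genes whose pattern over the 7 libraries was most like that of each gene that fell were sought among 11906 genes with at least 10 counts in every library of 1 group, by the root mean square difference of centred log2 CPM. For Tgfb1 these were Net1 (difference 0.055), Lactb2 (0.068) and Arid1b (0.072), with log2 fold changes of -0.61, -0.58 and -0.47. For Thbs1 they were Syt12 (0.226), Nr4a3 (0.300) and Myot (0.378), with log2 fold changes of -2.73, -2.21 and -2.28. The difference grows with the size of the change, so it cannot be compared between Thbs1 and Tgfb1. These are descriptions of likeness, with no test.

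The wider TGF-beta pathway was taken as 4 lists of genes outside the 10. Of its 43 genes, 10 rose, 5 fell and 28 did not pass, with a median log2 fold change of -0.08 against 0.00 over all genes, of which 8.48% rose and 8.73% fell. The groups did not overlap for 23 of the 43 (53.5%, against 29.7% of all genes), 11 of them higher and 12 lower in mNrf2-TG. Leaving out any 1 of the mNrf2-TG libraries left 7 that rose, and without mNrf2-TG 17, or without mNrf2-TG 19, 3 fell. Of the 10 that rose, 6 were on the list of target genes; the lists were not tested against each other.

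Of 17 genes that store or activate TGF-beta, 3 rose and 1 fell; 1 rose without mNrf2-TG 17 or 18, and 0 fell without mNrf2-TG 17 or 19. Ltbp3, a latent TGF-beta binding protein, rose from 248 ± 25.1 to 334 ± 19.9 normalised counts (log2 fold change 0.43, adjusted p = 0.0156). Itgb5, an integrin subunit that pairs with alpha-v in binding latent TGF-beta, rose from 816 ± 53.1 to 1032 ± 14.9 (0.34, adjusted p = 0.0113), and Mmp2, a gelatinase, rose from 538 ± 146 to 843 ± 134 (0.65, adjusted p = 0.0377 in edgeR). The call of Mmp2 was the least stable of these, held in 8 of the 14 alternative fits. Furin, the protease that cleaves the TGF-beta propeptide, fell from 1142 ± 201 to 784 ± 56.2 (-0.54, adjusted p = 0.0164), and without NTG 3, its highest NTG library, the log2 fold change was -0.41. The other 13 did not pass.

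Of 6 receptor genes, Bambi rose, Acvrl1 fell and 4 did not pass. Bambi, a pseudoreceptor that dampens TGF-beta signalling, measured 126 to 151 normalised counts in NTG hearts against 263 to 367 in mNrf2-TG hearts. This was a 2.41-fold rise (log2 fold change 1.27 ± 0.13, adjusted p = 0.000304 in edgeR). Acvrl1, the type I receptor ALK1 of endothelial cells, measured 394 to 441 and 275 to 326 (-0.45 ± 0.09, adjusted p = 0.00780). The type I receptor Tgfbr1 stood at 287 ± 91.1 and 288 ± 15.6 (adjusted p = 0.994) and the type II receptor Tgfbr2 at 621 ± 108 and 520 ± 1.33 (adjusted p = 0.174).

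Of 10 genes for Smad proteins and their inhibitors, 2 fell and 8 did not pass, and the median log2 fold change was -0.17 against 0.00 over all genes. In 6 of the 10 (60.0%, against 29.7% of all genes without overlap in either direction) every mNrf2-TG heart was below every NTG heart, namely Smad6, Skil, Smad2, Smad7, Ski and Smurf2, of which the last 4 did not pass. The calls were Smad6, an inhibitory Smad (log2 fold change -0.66 ± 0.13, adjusted p = 0.00876, lowest among the NTG hearts in NTG 3), and Skil, a repressor of Smad targets that TGF-beta itself induces (-0.48 ± 0.09, adjusted p = 0.00703 in edgeR). The transducers Smad2 (270 ± 16.9 and 242 ± 8.87 normalised counts) and Smad3 (197 ± 13.4 and 177 ± 23.0) did not pass.

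Of 13 genes that TGF-beta is known to regulate in fibroblasts, 6 rose (4 to 7 with each library left out) and 2 fell (1 to 2), with a median log2 fold change of 0.44 against 0.00 over all genes. Their summed level was 1563 CPM in NTG 3, 554 to 816 CPM in the other NTG hearts and 1459 to 1899 CPM in mNrf2-TG. Much of the difference between hearts in that sum came from Acta2, which is on this list and did not pass with all libraries. The activated fibroblast markers below, mostly Acta2, summed to 1119 CPM in NTG 3 and 179 to 300 CPM in the other NTG hearts. In mNrf2-TG they summed to 781 to 1316 CPM. The sum of the target list thus does not show a rise of the list as a whole. The fibrillar collagen gene Col1a2 measured 400 to 572 normalised counts in NTG hearts against 805 to 923 in mNrf2-TG hearts (0.83 ± 0.11, adjusted p = 0.00153), and Col5a1, which nucleates collagen fibrils, rose by 0.44 ± 0.09 (adjusted p = 0.0101). Tgfbi, a matrix protein named for its induction by TGF-beta, rose from 149 ± 23.7 to 268 ± 58.9 (0.85 ± 0.16, adjusted p = 0.00790 in edgeR). The rise of Col1a1 was 0.77 ± 0.17 (adjusted p = 0.0141 in edgeR). That of Cilp, a matrix protein of activated fibroblasts, was 1.21 ± 0.31 (adjusted p = 0.0256 in edgeR). The call of Col1a1 was lost without mNrf2-TG 19, and that of Cilp without NTG 1, mNrf2-TG 17 or mNrf2-TG 18. The fall of Skil, also on this list, is given above. The remaining calls were named after their values were seen. They were a rise of Col3a1 (0.77), another fibrillar collagen gene, and a fall of Lox (-0.99), the collagen crosslinking enzyme. The call of Lox was lost with limma-voom and with any 1 library left out except NTG 2.

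**Figure D4:**
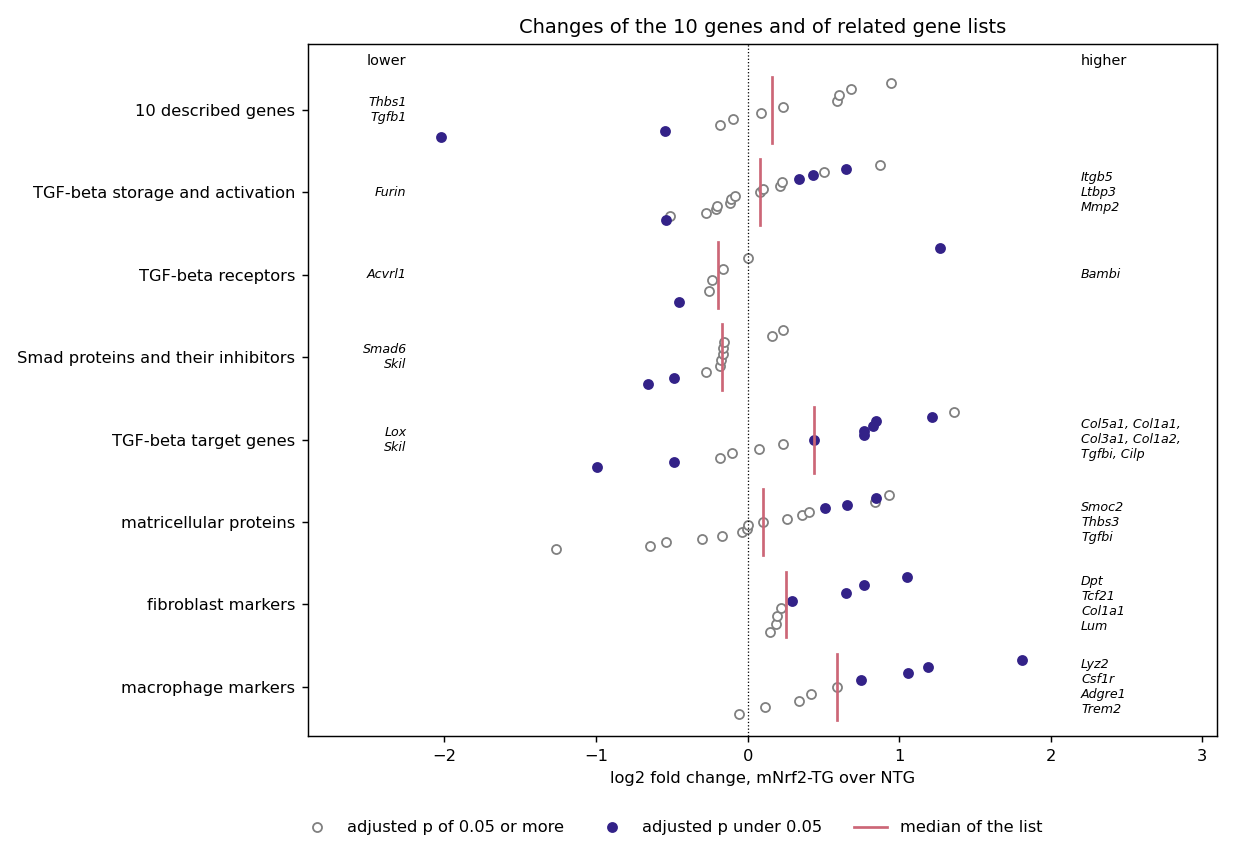
Log2 fold changes (x axis, mNrf2-TG over NTG) of the 10 described genes and of genes in 7 related lists, 1 point per gene, filled where the adjusted p was under 0.05 and named at the left (lower) or right (higher), with the median of each list as a red line. The target genes have a median of 0.44 and the macrophage markers one of 0.59, and the 10 described genes one of 0.16.

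Of 17 further matricellular genes, 3 rose, against 8.48% of all genes: Tgfbi, Thbs3 and Smoc2, a calcium-binding matrix protein (756 ± 134 and 1078 ± 35.3 normalised counts, log2 fold change 0.51, adjusted p = 0.0187 in edgeR). None fell (0 of 17 by edgeR, against 8.73% of all genes, 0 at an unadjusted p under 0.05, and 0 by DESeq2 and by limma-voom). With only 17 genes, neither count lies far from those shares. Leaving out NTG 1, mNrf2-TG 17 or mNrf2-TG 18 left 1 that rose. Ccn1, the nearest relative of Ccn2 in this list, stood at 986 ± 707 and 630 ± 105 normalised counts and did not pass (adjusted p = 0.306).

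Of 12 cell surface receptors for these proteins, Itgb5 rose (2 rose without NTG 3), 2 fell and 9 did not pass. Over all genes 8.48% rose and 8.73% fell. Sdc4, syndecan-4, a fibronectin co-receptor at focal adhesions, measured 152 to 175 normalised counts in NTG hearts against 77.8 to 81.7 in mNrf2-TG hearts, a fall without overlap (log2 fold change -1.06 ± 0.11, adjusted p = 0.000277 in edgeR). Itga9, an integrin subunit that binds osteopontin and tenascin, fell by 0.42 on the log2 scale (adjusted p = 0.0273), and by 0.31 without NTG 3, its highest NTG library. The call of Itga9 was lost without NTG 1 and without any 1 of the mNrf2-TG libraries. The thrombospondin-1 receptors Cd36 and Cd47 did not pass.

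Some markers of the cell types that make these proteins passed, where 8.48% of all genes rose and 8.73% fell. In bulk tissue, fewer cells of a type and less RNA per cell cannot be told apart. Of 8 fibroblast markers 4 rose (Lum, Tcf21, Col1a1 and Dpt), a count that ranged from 1 (without mNrf2-TG 19) to 5 (without NTG 3), with 2 without NTG 1, NTG 2 or mNrf2-TG 17. Their summed level was 2508 to 2741 CPM in NTG and 2850 to 3314 CPM in mNrf2-TG. Of 9 macrophage markers 4 rose (Adgre1, Csf1r, Lyz2 and Trem2, by 0.75 to 1.81 on the log2 scale), and their sum was 228 to 290 CPM in NTG and 358 to 462 CPM in mNrf2-TG, highest among the NTG hearts in NTG 3. Trem2, at the top of that range, had few raw counts: 3, 6, 9 and 8 in NTG 1 to 4 and 26, 17 and 28 in mNrf2-TG 17 to 19. The size of its change is therefore imprecise (1.81 ± 0.35). The macrophage count stayed between 4 and 5 with each library left out. Of 8 activated fibroblast markers 2 rose, Cilp and Fap, but 0 did without NTG 1 or without mNrf2-TG 18, 1 without NTG 2, NTG 4, mNrf2-TG 17 or mNrf2-TG 19, and 3 without NTG 3. The sum of these markers, which was mostly Acta2, was 1119 CPM in NTG 3, 179 to 300 CPM in the other NTG hearts and 781 to 1316 CPM in mNrf2-TG. Without Acta2 that sum was 42.8 to 63.0 CPM and 54.5 to 73.3 CPM. The 5 smooth muscle markers, of which Acta2 was the most abundant, summed to 1306 CPM in NTG 3, 353 to 490 CPM in the other NTG hearts and 956 to 1473 CPM in mNrf2-TG, and none of them passed in edgeR with all libraries, while 1 rose without NTG 3. The part of these cell types in the values of the 10 genes was not tested.

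Marker lists of other cell types were summed in the same way. The 5 cardiomyocyte markers, led by Myh6, summed to 53835 CPM in NTG 3, 41883 to 44835 CPM in the other NTG hearts and 36861 to 39947 CPM in mNrf2-TG, and 1 of them, Tnni3, fell (2 without NTG 3). Of 6 endothelial markers Kdr rose and Pecam1 and Cdh5 fell, and Rgs5 was the 1 of 5 pericyte markers to fall; without NTG 4, 3 endothelial and 2 pericyte markers fell. The 4 platelet markers tested, a cell type rich in Tgfb1 and Thbs1, summed to 10.2 to 13.0 CPM in NTG and 8.25 to 15.3 CPM in mNrf2-TG, and none passed. Most of that sum was Pf4. Without Pf4 it was 0.93 to 1.99 CPM in NTG and 1.29 to 1.93 CPM in mNrf2-TG. Ppbp, Itga2b and Gp1bb each had a mean count under 10, so the sum mainly follows 1 gene. The 4 atrial markers tested, most of whose sum was Stard10, summed to 29.9 to 32.6 CPM in NTG and 54.2 to 76.8 CPM in mNrf2-TG, with a median log2 fold change of 0.88. Stard10 passed (1.11 ± 0.14, adjusted p = 0.00122 in edgeR), and the other 3 did not, while 3 of the 4 rose without NTG 3 and 2 without mNrf2-TG 17. Myl7, which marks atrial muscle, was near 0 with a mean under 2 normalised counts in either group. The 4 skeletal muscle markers summed to 84.1 to 163 CPM in NTG and 55.4 to 86.7 CPM in mNrf2-TG (median -0.57), and Myh1 and Myh4 fell, while 1 marker rose without NTG 3. Wt1 was the 1 epicardial marker to fall (sum 16.6 to 21.7 CPM in NTG and 10.7 to 14.9 CPM in mNrf2-TG), and Scx the 1 tendon and valve marker to rise (sum at most 9.45 CPM in NTG and at least 9.56 CPM in mNrf2-TG). Leaving out 1 library could end the calls of Kdr, Cdh5, Rgs5, Wt1, Scx, Myh1 and Myh4, each of which was lost in at least 1 such fit. The part of these tissues in the values of the 10 genes was not tested. The 2 adipocyte markers tested summed to at most 0.84 CPM in any library.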

How the data were processed

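Whole heart RNA from 4 NTG and 3 mNrf2-TG mice was sequenced by the authors as single reads from stranded poly(A) libraries, 1 per mouse. Per the submitters' processing notes, Novoalign 2.08.01 and DESeq2 1.32.0 were used. The methods name hg19 for the alignment index but mm10 (GRCm38) for the mapped transcriptome, and the counting program and any use of strand in counting are not given in the sources used here. The authors deposited raw counts per gene, without normalization, and these were the values tested here. The deposited signal column baseMean, made by the authors as a mean of counts divided by size factors over all libraries, served only to check the join of names to counts. The deposited fold changes and p-values of the authors' own comparison and the rlog table were not used.

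From 14665 entries 24 repeats were removed, and the 14637 genes with a summed count above 1 were tested with edgeR 4.0.16 (R 4.3.3; TMM, quasi-likelihood F test, Benjamini-Hochberg over all genes tested), which was first tested on simulated data. Normalised counts are TMM-scaled CPM times the mean library total, and RPKM divides TMM-scaled CPM by the summed exon length in GENCODE M21 (GRCm38). Library totals of 6534684 to 8405857 counts limit precision for genes with few counts, such as Spp1. With 1 library per mouse, p-values set the difference between the groups against the spread between these mice. The estimate of that spread borrows information from the other genes. DESeq2 1.42.0, limma-voom (limma 3.58.1), other scalings and count filters, and leaving out each library in turn were the alternatives, 14 in all. None was added later.

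The 10 genes, the gene lists and the marker lists were chosen with earlier results of these data known, and 1 gene of the target list is not reported here and not counted. Besides the 10 genes, the text names by rule up to 4 called genes of lowest p per list, Nfe2l2, and the 3 genes most like each of the 10 that passed (pseudocount 0.5 CPM). Genes named outside this rule are said to be so or are given without a call.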

Additional observations from a re-analysis of the deposited data

Results flagged for a closer look

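In groups of 4, a library was singled out where its gap to the nearest other library, divided by the range of the group, was above Dixon's 95% critical value, which chance alone gives in about 1 of 20 groups. Of 49 genes examined, 5 had such a library among the NTG hearts, and in all 5 it was NTG 3. It was far above the other NTG hearts for Ccn2, with a ratio of 0.938, for Postn (0.856), for Furin (0.860) and for Itga9 (0.852), and far below them for Smad6 (0.865). The mNrf2-TG group, with 3 libraries, was not examined in this way. The cause was not tested.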

How the results depend on the processing

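Thbs1 was lower and passed in all 14 alternatives. The count of the 10 genes that rose went from 0 to 1 with DESeq2 and to 1 with scaling by library total only, in both cases by Tgfb2. With each library left out in turn it ranged from 0 to 4, highest without NTG 3 and 1 without mNrf2-TG 19, and the count that fell ranged from 1 to 2, with Tgfb1 lost without mNrf2-TG 18. Over the same fits the pathway genes that rose ranged from 7 to 12 and those that fell from 3 to 5, and the matricellular genes that rose ranged from 1 to 4 and those that fell from 0 to 0. Signs turned for Fn1 without NTG 3 (log2 fold change 0.019; -0.21 to 0.019 over the libraries left out), and for Ccn2 without NTG 3 (0.85), without mNrf2-TG 19 (0.09; -0.44 to 0.85 over the libraries left out) and with limma-voom (0.19), and the cause was not tested. Of 546 values of the other 39 named genes, 473 kept their side of the threshold, 73 (over 20 genes) no longer passed and 0 reversed. Col3a1, Lox and the genes most like Thbs1 or Tgfb1 are not among these 39. The call of Col3a1 was lost without mNrf2-TG 19, and that of Lox in the fits named above. No paired analysis was possible because the labels name neither litters nor pairs. Depth limits Spp1, which has 8 or fewer counts per library.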
